A study of Chlamydomonas reinhardtii with 8 samples.

Results

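The transcripts described here gave the brightest probes in heat-shocked and in unstressed cells of the unicellular green alga Chlamydomonas reinhardtii alike. The members were chosen by the rank of their processed signal, which had to be within the top 2.5% of the probes on each of the 8 arrays. Of the 10000 algal probes, 9997 had a usable spot and 112 were members. Because the members were selected on the measured signals of both groups, their high ranks and levels in both groups are a description and were not tested. The heat shock group consisted of 4 arrays with total RNA of cultures shaken for 45 min at 42 °C in the light, and the control group of 4 arrays with total RNA of cultures kept for 45 min in the light at 23 °C. Both groups were whole cells of strain CC-124, precultured in acetate medium at 23 °C either in darkness or under continuous light, and which of the 2 applied to a given array is not stated. The design text counts 3 biological replicates, whereas each group has 4 numbered arrays, so the p-values measure the spread between arrays, part of which may be technical.

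In algae, as in other organisms, a small number of genes supply a large part of the messenger RNA, among them in general those for light-harvesting proteins, for the small subunit of Rubisco and for ribosomal proteins. A heat shock induces chaperone genes through heat shock transcription factors, while the messages of many other genes decline through lower synthesis or faster decay. A transcript can stay among the most abundant through such a stress if it is long-lived, if its gene stays active, or if all others decline more. The deposited files do not pair the probes with genes, and no probe ID was found in the RefSeq gene table, so members are given by probe ID, no gene list could be applied and the identity of the cells was not checked against marker genes.

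Membership was a narrower set than the top of either group alone. There were 186 probes within the top 2.5% on all 4 heat shock arrays and 173 on all 4 control arrays. The 112 members were 60.2% of the heat shock set and 64.7% of the control set, which left 74 probes at the top of the heat shock arrays only and 61 at the top of the control arrays only. The signal that corresponded to the threshold was 217710, 93646, 78132 and 118441 on heat shock replicates 1 to 4, against 242318, 191672, 131711 and 128232 on control replicates 1 to 4. Replicate 1 had the highest threshold in each group. The members nearest the threshold were 367.A, 200.A and 263.A, with lowest percentile ranks (100 is the brightest probe) of 97.57, 97.58 and 97.65, each on control replicate 1. The probes just outside were 119.A, 7189.C and 463.A, with lowest ranks of 97.49, 97.48 and 97.47, and each missed the threshold on 1 array only. That array was heat shock replicate 3 for 119.A and 7189.C and control replicate 3 for 463.A.

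Most members were too bright for the scanner on some array. A member was counted as saturated on an array if any of its unflagged spots carried the scanner's saturation flag, in which case its signal there is a lower bound. By this count 23 members were saturated on no array, 73 on 1 to 7 arrays and 16 on all 8. On single arrays the number of saturated members was 77, 49, 26 and 52 on heat shock replicates 1 to 4, against 75, 62, 35 and 35 on control replicates 1 to 4. The ranges of the groups overlapped. All 112 members were read from the low-gain scan on every array, compared with 5.76% to 10.4% of all probes on the heat shock arrays and 10.2% to 14.8% on the control arrays.

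Saturation was mostly shared between the groups. Of the 89 members saturated on some array, 66 had saturated arrays in both groups, 11 on heat shock arrays only and 12 on control arrays only. More heat shock than control arrays were saturated for 24 members, more control than heat shock arrays for 26, and equal numbers for 39. The 16 members saturated on all 8 arrays were 101.A, 290.A, 819.C, 1477.C, 2900.C, 3219.C, 4436.C, 4577.C, 6172.C, 7163.C, 9191.E, 9345.E, 9392.E, 9508.E, 9548.E and 9807.E, for which no fold change can be given. For 2 members, 464.A and 67.A, all 4 heat shock arrays and no control array were saturated, and for 1 member, 113.A, all 4 control arrays and no heat shock array were (these 3 were chosen after their values were seen).

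**Figure D1:**
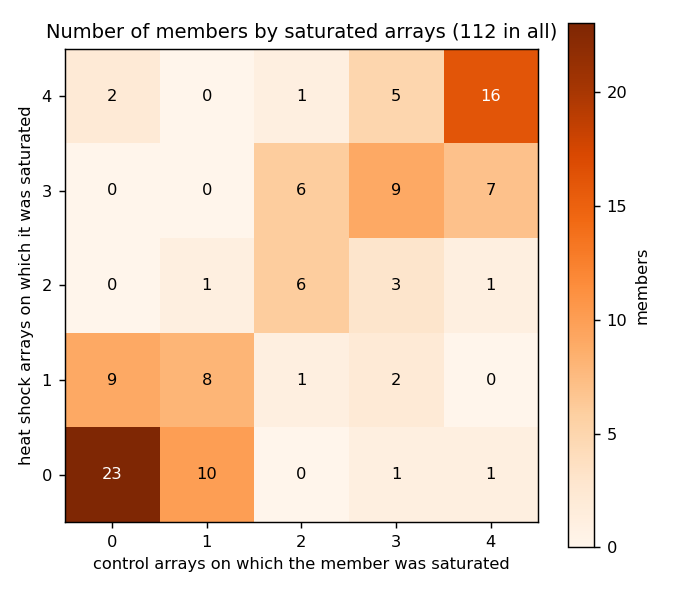
Number of the 112 members by how many of the 4 heat shock arrays (vertical axis) and how many of the 4 control arrays (horizontal axis) were saturated, with the count in each cell. The largest cells are the 23 members saturated on no array and the 16 saturated on all 8.

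Levels were set against 2 standards. The first was the mean log2 signal of 5 E1A spike-in probes (synthetic control RNA of known amount) that passed the background and saturation flags throughout. The second was each array's 75th percentile over all algal probes. The choice mattered because signals as a whole were lower after heat shock, as the median probe had a signal of 137.5, 78.0, 82.6 and 83.3 on heat shock replicates 1 to 4, against 764.5, 693.6, 650.5 and 568.7 on control replicates 1 to 4. The array's 75th percentile accordingly lay 2.88 log2 units lower on heat shock arrays before scaling. The spike-in mean went the other way and was 13.04 ± 0.41 on the log2 scale on heat shock arrays and 12.52 ± 0.28 on control arrays (SD, n = 4 each). Since total RNA of whole cultures was measured, fewer cells with a transcript and less of it per cell cannot be told apart.

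The 23 members saturated on no array are those with a measured level in every sample. Their median unscaled signal was 377314, 256780, 187650 and 244806 on heat shock replicates 1 to 4, against 320660, 320017, 203663 and 194264 on control replicates 1 to 4. The groups thus overlapped, and the members' median unscaled change was -0.02 on the log2 scale, against -2.61 over the 6921 probes tested. Set against the spike-ins, the median member lay 5.05, 4.70, 4.64 and 5.35 log2 units above their mean on heat shock replicates 1 to 4, against 5.61, 5.46, 5.33 and 5.30 units on control replicates 1 to 4. Heat shock replicate 4 fell within the range of the controls and the other 3 heat shock arrays below it. Set against the 75th percentile, the same medians were 7.87, 8.67, 8.08 and 8.19 units on heat shock replicates 1 to 4, against 5.39, 5.52, 5.03 and 5.22 units on control replicates 1 to 4, and the groups did not overlap.

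The members sat above most of the range of the usable spike-ins. Of all 10 spike-in probes, 8 were saturated on no array, and the others were left out for saturation. Of the 23 unsaturated members, 19, 16, 17 and 23 exceeded the brightest usable spike-in on heat shock replicates 1 to 4, whereas all 23 did on each control array. Of all 112 members, 107, 96, 94 and 112 exceeded it on heat shock replicates 1 to 4 and 112 on each control array. The spike-in comparison therefore reaches beyond the signals of the usable spike-ins. Against that brightest usable spike-in alone, a standard added after the data were seen, the median change of the unsaturated members was -0.61 on the log2 scale.

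Relative to the spike-ins, the change (heat shock over control) of the 23 unsaturated members had a median of -0.54 on the log2 scale, which is 1.46-fold lower, with a range of -1.10 to -0.01. The median over all 6921 tested probes was -3.13, with quartiles of -5.02 and -1.10. All 23 means were lower after heat shock, and 20 of the 23 changes lay between -1 and 1, compared with 16.6% of the tested probes. A high rank in both groups together with a signal below saturation leaves little room for a large change, so the small range is in part fixed by how these members were chosen. Before scaling, the changes of the 23 had a median of -0.02 and ran from -0.58 to 0.51. Relative to the spike-ins each is lower by the 0.52 log2 units by which the spike-in mean was higher on heat shock arrays. That all 23 means were lower therefore rests on this shift of the standard. Why the spike-in mean differed was not tested.

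Few members passed the test of the change relative to the spike-ins. Of the 23 unsaturated members, 5 were lower at an adjusted p under 0.05 (limma, 2-sided, Benjamini-Hochberg over all tested probes) and none was higher, and of all 112 members 20 were lower and 0 higher. At an unadjusted p under 0.05 in the same limma fit, 22 of the 112 were lower and still 0 higher. Of the 20, 15 were saturated on some array, where their values are bounds. Over all tested probes, 75.3% were called lower and 6.82% higher by the same rule. The levels of the 2 groups did not overlap, with heat shock lower, for 6 of the 23 and for 23 of the 112, against 72% of the tested probes. As the ranks of both groups chose the members, nothing is read from these counts about the members as a class. The count of 5 was 8 without heat shock replicate 4, 2 without heat shock replicate 2, heat shock replicate 3 or control replicate 1, and 3 without control replicate 2, 3 or 4, while the count of 20 was 41, 13, 11 and 12 without heat shock replicate 4, heat shock replicate 2, heat shock replicate 3 and control replicate 1. With slide row as a block the counts were 5 of 23 and 18 of 112, and within the 2 slide rows (2 arrays of each group in each) 0 of 23 in both and 0 and 4 of 112 (limma). At an unadjusted p under 0.05 these were again 0 of 23 in both and 1 and 6 of 112. Slide column was not balanced, as heat shock arrays lay in columns 2 and 4 and control arrays in columns 1 and 3. Column and treatment therefore cannot be told apart.

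**Figure D2:**
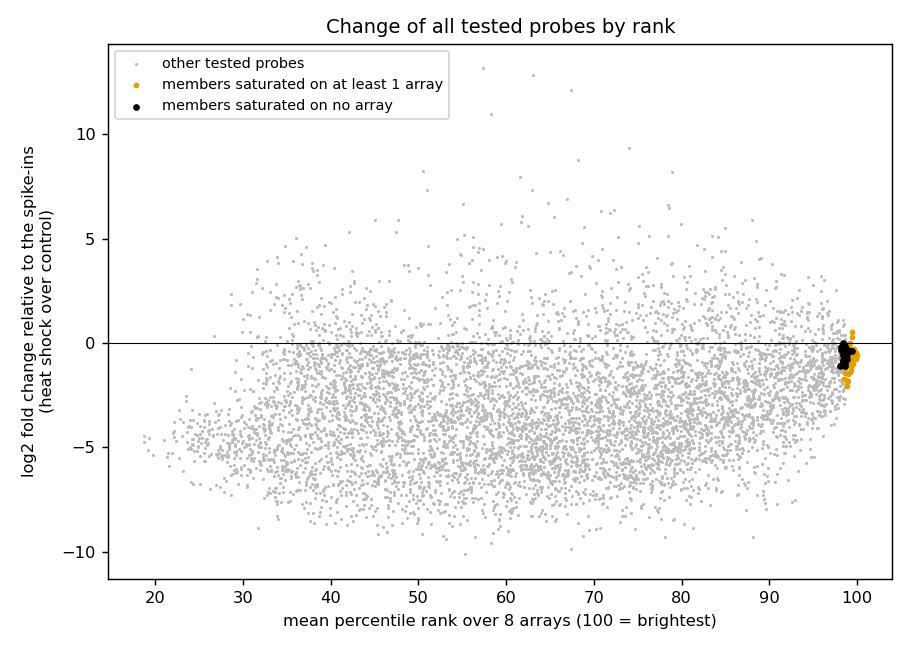
Log2 fold change relative to the spike-ins (vertical axis, heat shock over control) of the 6921 tested probes by mean percentile rank over the 8 arrays (horizontal axis), with members saturated on no array in black, other members in orange and other probes in grey. The 23 unsaturated members lie between -1.10 and -0.01, whereas the median over all tested probes is -3.13.

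Relative to the 75th percentile the picture of the same members was the reverse. All 23 unsaturated members, and all 112 members, were called higher after heat shock, against 40.7% of the tested probes. This restates how the members were chosen together with the fall of the standard by 2.88 log2 units, and nothing is read from it. The median change was 2.86 on the log2 scale for the 23, with a range of 2.30 to 3.39, against 0.27 over all tested probes. Quantile scaling, which gives every array the same distribution of signals, brought the median of the 23 to 0.18, and only 2 of the 23 and 6 of the 112 were then called higher. That scaling uses the ranks within each array, and the members were chosen by rank. Small changes under it are therefore in part built in. The direction of the members' change thus depended on the standard, and each value below names its own.

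Members with the largest change among those whose groups did not overlap came first. Relative to the 75th percentile, 4563.C averaged 8.38 ± 0.24 log2 units on heat shock arrays and 4.99 ± 0.18 on control arrays (SD, n = 4 each), a rise of 3.39 ± 0.29 (SE, limma, adjusted p = 1.36e-06). As all 112 members passed the test on this standard, nothing is read from the p-value. Relative to the spike-ins, however, the level of 4563.C was 5.39, 4.53, 4.72 and 5.83 on heat shock replicates 1 to 4, against 5.34, 5.07, 5.04 and 5.06 on control replicates 1 to 4. Its groups overlapped there, with heat shock arrays both above and below all controls, and the change was -0.01 ± 0.37 (SE, limma, adjusted p = 0.977). The sign of this small value turned under 7 alternatives.

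The next, 9526.E, averaged 8.52 ± 0.52 log2 units above the 75th percentile on heat shock arrays and 5.27 ± 0.28 on control arrays (SD, n = 4 each), a rise of 3.24 ± 0.34 (SE, limma, adjusted p = 6.74e-06). Nothing is read from this p-value either. Quantile scaling left a change of 0.59 with an adjusted p of 0.0788. Relative to the spike-ins its level was 5.14, 5.25, 5.06 and 5.54 on heat shock replicates 1 to 4, against 5.61, 5.55, 5.29 and 5.18 on control replicates 1 to 4, so that the groups overlapped. No unsaturated member was lower relative to the 75th percentile, and none with groups apart was higher relative to the spike-ins.

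Relative to the spike-ins, the largest fall was that of 8479.D, which also had the lowest mean rank of the unsaturated members (97.98). Its level was 4.58, 3.62, 3.65 and 4.50 on heat shock replicates 1 to 4, against 5.41, 5.10, 5.08 and 5.17 on control replicates 1 to 4. Every heat shock array lay below every control, which was a condition of being named for a fall. The change was -1.10 ± 0.35 on the log2 scale (SE, limma, adjusted p = 0.0128), or 2.15-fold lower. Within slide rows 1 and 2 it was -1.15 and -1.05, and neither passed the test.

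For 5290.C the level was 4.83, 4.22, 4.40 and 5.18 on heat shock replicates 1 to 4, against 6.0, 5.57, 5.83 and 5.57 on control replicates 1 to 4. These groups did not overlap either, by the same condition. The change was -1.09 ± 0.34 on the log2 scale (SE, limma, adjusted p = 0.0113), or 2.13-fold lower. Within slide rows 1 and 2 it was -1.26 and -0.91, neither past the threshold. Relative to the 75th percentile both 8479.D and 5290.C were higher, by 2.30 and 2.31 on the log2 scale, and under quantile scaling the values were -0.18 and -0.28, neither of which passed the test.

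**Figure D3:**
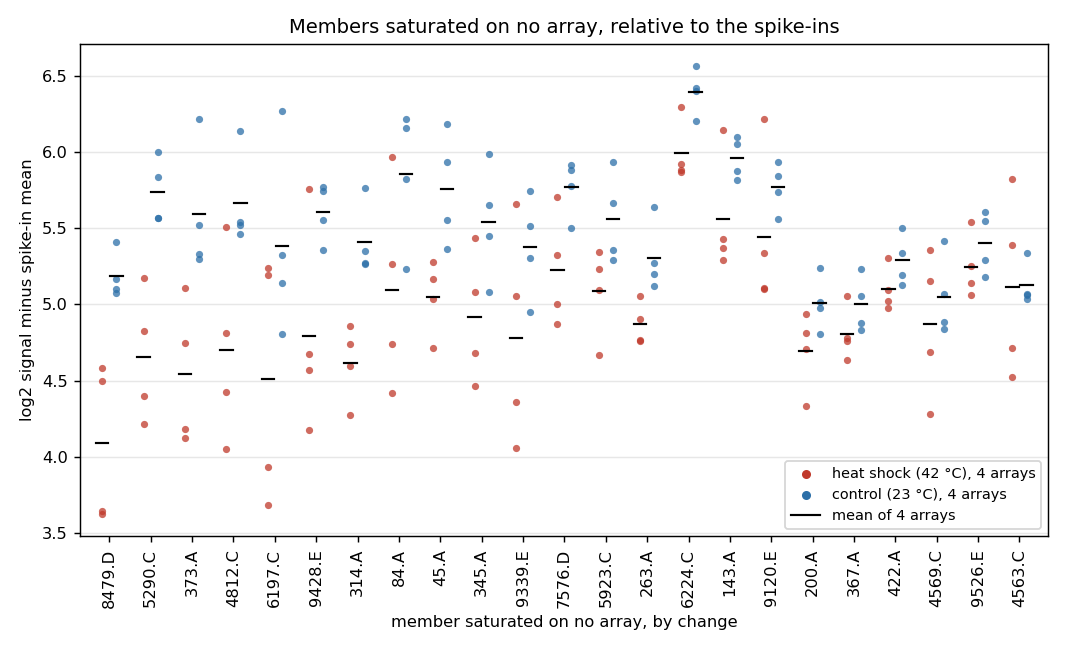
Log2 signal minus the spike-in mean (vertical axis) of the 23 members saturated on no array, ordered by their change, with each heat shock array as a red point at the left and each control array as a blue point at the right, and the mean of 4 arrays as a black line. The red means lie below the blue means for all 23, by 1.10 log2 units for 8479.D and 0.01 for 4563.C.

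The members with the smallest spread over all 8 arrays were 422.A, 367.A, 9526.E and 200.A, with an SD of 0.18, 0.20, 0.21 and 0.27 on the log2 scale relative to the spike-ins. The level of 422.A was 5.03, 5.10, 4.98 and 5.30 on heat shock replicates 1 to 4, against 5.50, 5.34, 5.19 and 5.13 on control replicates 1 to 4. Its 2 groups overlapped, and the change was -0.19 ± 0.30 (SE, limma, adjusted p = 0.562). For 367.A the level was 4.76, 4.78, 4.64 and 5.05 on heat shock replicates 1 to 4, against 5.23, 4.88, 4.83 and 5.06 on control replicates 1 to 4, a change of -0.19 ± 0.31. For 200.A it was 4.94, 4.70, 4.33 and 4.82 on heat shock replicates 1 to 4, against 5.24, 4.98, 4.80 and 5.01 on control replicates 1 to 4, a change of -0.31 ± 0.31. Neither passed the test (adjusted p = 0.564 for 367.A and 0.365 for 200.A), which does not show that their levels were equal.

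At the bright end of the unsaturated members were 6224.C, 143.A and 9120.E, with mean ranks of 99.44, 99.04 and 98.91. The processed signal of 6224.C was 670332, 576566, 458597 and 472182 on heat shock replicates 1 to 4, against 623515, 614499, 432463 and 364163 on control replicates 1 to 4. These groups overlapped. On heat shock replicate 1 the processed signal exceeded that array's saturation value of 641915, although none of the probe's spots carried the saturation flag on any array. Its change relative to the spike-ins was -0.40 ± 0.30 (SE, limma, adjusted p = 0.232). For 143.A the change was -0.40 ± 0.33 (adjusted p = 0.268) and for 9120.E -0.33 ± 0.36 (adjusted p = 0.401), by the same limma fit. The largest spread within a group was that of 6197.C, with levels of 5.19, 3.69, 3.93 and 5.24 on heat shock replicates 1 to 4, against 6.27, 5.33, 5.14 and 4.81 on control replicates 1 to 4. Next was 9339.E, with 5.05, 4.36, 4.06 and 5.66 on heat shock replicates 1 to 4, against 5.51, 5.31, 4.95 and 5.75 on control replicates 1 to 4. For both, heat shock replicates 2 and 3 were the low arrays, and neither change passed the test (adjusted p = 0.11 and 0.195, limma).

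The spread between arrays was larger by median on the heat shock arrays. The median SD of the 23 members relative to the spike-ins was 0.43 log2 units on heat shock arrays and 0.22 on control arrays, compared with 0.69 and 0.42 over the tested probes. Spots of the same probe differed less than that, since the 8 unsaturated members with 2 spots had a median difference between spots of 0.126 to 0.201 log2 units on heat shock arrays and 0.0649 to 0.201 on control arrays. Across the 23 members the mean levels in heat shock and control correlated with Pearson's r of 0.62 and Spearman's rho of 0.43, as a description over probes that share arrays and were all chosen for high rank.

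The unsaturated members were also set against each other, which needs no outside standard. Relative to the median of the 23 on each array, the changes ran from -0.61 for 8479.D to 0.48 for 4563.C. The 2 groups did not overlap for 4 of the 23, against 74.2% of the tested probes on the same standard, and no test was run. The standard was made from these members, which were chosen for high rank in both groups, so nothing is read from this contrast. For 422.A the values were -0.04 to 0.39 on heat shock arrays and -0.17 to -0.10 on control arrays, and for 4563.C -0.18 to 0.48 on heat shock arrays and -0.39 to -0.24 on control arrays. For 5290.C they were -0.49 to -0.17 on heat shock arrays and 0.11 to 0.50 on control arrays, and for 8479.D -1.08 to -0.47 on heat shock arrays and -0.36 to -0.13 on control arrays. The first pair lay higher relative to the median member on heat shock arrays and the second pair lower.

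Members saturated in 1 group only have a bound on their change. Those below were chosen for this pattern after their values were seen, which in part fixes the direction. Their p-values were computed with saturated values, and nothing is read from them. For 464.A the level relative to the spike-ins was 6.33 ± 0.39 on the saturated heat shock arrays and 5.80 ± 0.31 on control arrays (SD, n = 4 each), a measured difference of at least 1.44-fold in favour of heat shock that did not pass the test (limma, adjusted p = 0.169). For 67.A it was 6.33 ± 0.42 on heat shock arrays, where saturated, and 6.05 ± 0.21 on control arrays, at least 1.22-fold higher (limma, adjusted p = 0.444). In both cases the groups overlapped on this scale, and within slide row 1 the measured change of 67.A was -0.21. The opposite held for 113.A, whose level was 5.31, 3.64, 4.00 and 4.71 on heat shock replicates 1 to 4, against saturated values of 6.40, 6.08, 6.63 and 6.88 on control replicates 1 to 4. All heat shock arrays lay below all controls, and relative to the spike-ins 113.A was at least 4.23-fold lower (limma, adjusted p = 0.000669). Relative to the 75th percentile its measured change was 1.32 on the log2 scale (limma, adjusted p = 0.00223), an upper bound because the controls were saturated, and under quantile scaling it was -1.25.

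The arrays of slide row 2 (replicates 3 and 4 of both groups) left more members unsaturated, namely 54 on these 4 arrays against 23 on those of slide row 1. Over these 54 members, a set added after the data were seen, the change relative to the spike-ins had a median of -0.48 on the log2 scale and ran from -1.74 to 0.24. The 31 of them that were saturated on a slide row 1 array had a median of -0.48 and the 23 that were saturated nowhere -0.49. In slide row 1 the 23 had a median of -0.61 and ran from -1.37 to -0.22. The members unsaturated on slide row 2 only thus had a similar median, with 2 arrays per group and no test.

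The members also took up a large part of all signal on the arrays. They held 34.9%, 49.0%, 47.0% and 43.3% of the summed processed signal of all algal probes on heat shock replicates 1 to 4, against 27.3%, 31.2%, 32.6% and 33.5% on control replicates 1 to 4. The groups did not overlap, and the means were 43.6% ± 6.25 on heat shock arrays and 31.2% ± 2.74 on control arrays (SD, n = 4 each). The 23 unsaturated members alone held 5.37% ± 0.616 on heat shock arrays and 3.80% ± 0.253 on control arrays. Saturated signals enter these sums at their lower bound, on arrays of both groups. The sum over members was 42072200 to 62645000 on heat shock arrays and 46169600 to 61342600 on control arrays, whereas the sum over all other probes was 47422300 to 116889000 on heat shock arrays and 92545600 to 163218000 on control arrays. The members' own sums overlapped between the groups over most of their range, and those of the other probes overlapped through heat shock replicate 1 only.

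**Figure D4:**
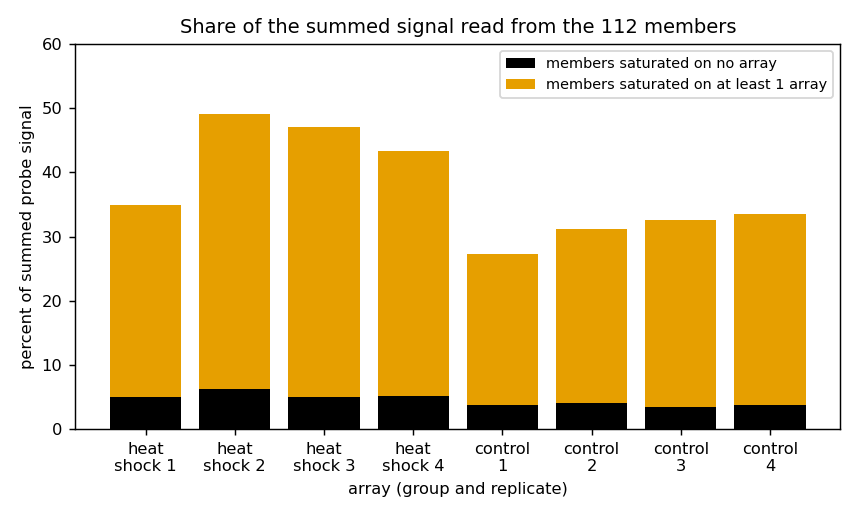
Percent of the summed processed signal of all algal probes (vertical axis) read from the 112 members on each array, with unsaturated members in black and members saturated on at least 1 array in orange. The heat shock arrays, at the left, lie between 34.9% and 49.0%, all above the control arrays, which lie between 27.3% and 33.5%. The members were chosen for brightness on all arrays, so this is a description.

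Features of the members' probes that the signals did not choose directly were set beside those of all probes. Probe IDs end in a letter, and the numbers run through the letters in blocks, from 1 to 497 for A and from 536 to 7509 for C. Of the members, 37 carried the letter A, which is 7.44% of the 497 probes with that letter. Another 37 carried C (0.531% of 6974), 9 carried D (0.638% of 1411), 29 carried E (2.69% of 1078) and none carried B (0 of 38 probes). What the letters stand for is not given in the sources used here. The letter A was also frequent at the top of each group, with 58 of the 186 heat shock probes and 61 of the 173 control probes, and the median change of the tested A probes relative to the spike-ins, -2.88, was near that of all tested probes. Probes with A had a median mean rank of 77.9 against 44.1 for C, so that the letter was common among bright probes of either group.

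In base composition the members' probes were like the others in total GC but not by strand. The median GC content was 55.2% for the members and 55.4% for all probes, and the median length was 54 bases for both. The median G content was 33.3% against 28.1% of all probes and the median C content 20.9% against 27.5%. More G than C was found in 74.1% of members, in 81.0% of other probes with a mean rank of 90 up to the threshold, in 71.3% at 75 to 90, in 58.8% at 50 to 75 and in 33.7% below 50. In the band next in rank the median G content was 32.8% and the median C content 21.6%, and in the members saturated on all 8 arrays they were 38.7% and 18.0%. The excess of G was thus common to bright probes, and by these medians it was slightly larger in the members than in the next band, while the share of probes with more G than C was lower.

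Green algal messages usually carry UGUAA near their 3' end as the polyadenylation signal. The corresponding letters TGTAA were searched in each probe as listed in the files and in its reverse complement, and a match is no evidence of a working site. The motif was in the listed sequence of 17 of 112 members (15.2%), of 4.16% of other probes with a mean rank of 90 up to the threshold, and of 2.82% of all probes. In the reverse complement it was in 1 of 112 members (0.893%) and in 3.49% of all probes. It was found in 5 of the 16 members saturated on all 8 arrays (31.2%), in 11 of the 73 saturated on 1 to 7 (15.1%) and in 1 of the 23 saturated on none (4.35%). At the top of 1 group only, it was in 6.76% of the 74 heat shock probes and 9.84% of the 61 control probes. The change relative to the spike-ins had a median of -0.48 for the 17 members with the motif and -0.54 for the 95 without it. No member shared a run of 20 bases or more with any other probe on either strand, so no sequence overlap of this length tied members to each other.

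**Figure D5:**
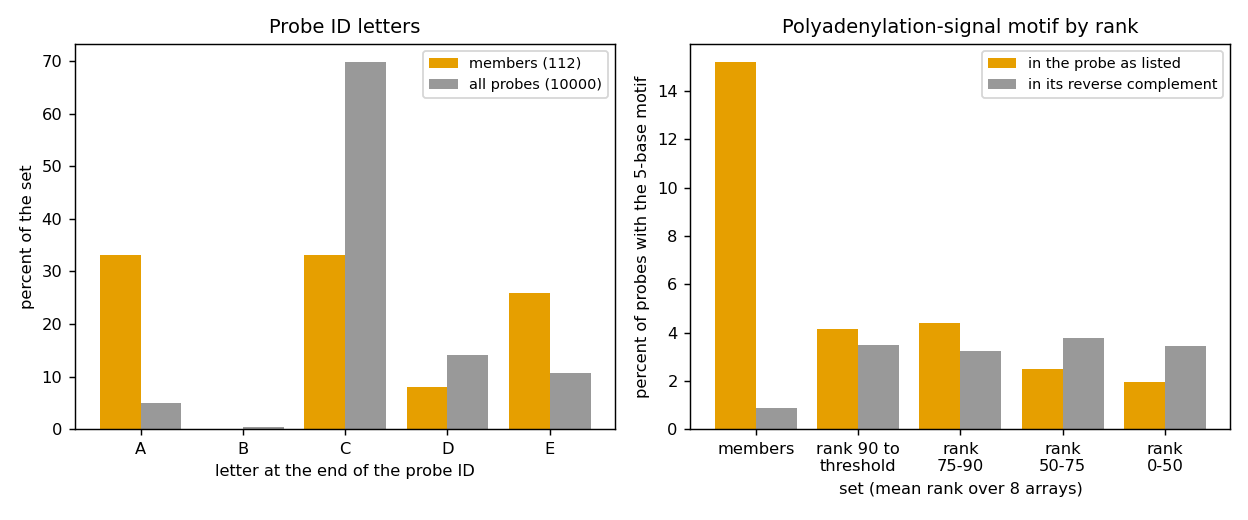
Left, percent of the 112 members (orange) and of all 10000 probes (grey) by the letter that ends the probe ID (vertical axis, percent of the set). Right, percent of probes with TGTAA in the listed sequence (orange) or in its reverse complement (grey) for members and for other probes by mean rank, where the listed strand reaches 15.2% in members and 4.16% in the next rank band.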

How the data were processed

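Groups and replicate numbers came from the sample titles. The members, lists and tests were chosen with earlier results of these data known. Per the file headers, the deposited intensity is Agilent Feature Extraction 9.5.3.1's processed signal (background-subtracted, detrended, not scaled between arrays), and flags for saturation and other defects are deposited with it. A deposited log2 table, for which the sources used here give no method, served as an alternative. Spots flagged as non-uniform or as population outliers were left out, log2 intensities were averaged per probe, and ranks were taken per array. Scaled values of 6921 probes, well above background on at least 4 arrays, were tested by limma 3.58.1 (R 4.3.3). Depth does not apply to arrays, whose number, 4 per group, limits the precision. Same-numbered arrays of the 2 groups deviated together (correlations 0.271, 0.116, 0.264 and 0.198 over 6750 probes), although heat shock replicate 2 correlated more with control replicate 3 (0.160), and were treated as pairs in the blocked alternative. Members were named by largest change with groups apart, smallest and largest spread, rank, distance to the threshold and saturation on all arrays. Probe sequences were used for composition and motifs and are not printed. Alternatives varied the rank threshold, spots, background correction, scaling, spike-ins, dim-probe filter, slide row and the arrays included.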

Additional observations from a re-analysis of the deposited data

Results flagged for a closer look

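For 3 of 40 sets of 4 arrays examined, 1 array stood apart from the other three by Dixon's criterion, and chance flags about 1 in 20 such sets. The heat shock level of 6224.C relative to the spike-ins was 6.30 on replicate 4 and 5.87 to 5.93 on the others. That of 143.A was 6.15 on heat shock replicate 4 and 5.29 to 5.43 on the others. The control level of 4563.C was 5.34 on replicate 1 and 5.04 to 5.07 on the others. Heat shock replicate 4 also had the lowest spike-in mean of its group, 12.55 against 12.88 to 13.47, and its part in the first pair was not tested.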

How the results depend on the processing

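The number of members was 233 at a rank threshold of 95, 55 at 99, 186 by the heat shock arrays alone and 173 by the control arrays alone; it was 112 to 120 when 1 array was left out, which by the rule can only add members. It was 83 when only probes well above background were ranked, all among the 112, since the top 2.5% of fewer probes is a smaller set. Of the 112, 111 were kept by background-subtracted or normexp signals. Members saturated on no array numbered 114 at 95 and 1 at 99. Members called lower relative to the spike-ins were 34 with an intensity trend, 0 and 4 within slide rows 1 and 2, and 11 to 41 with 1 array left out. For the unsaturated ones these counts were 3 with all unsaturated spike-ins, with the median of the spike-ins or with no filter on dim probes, 0 within each slide row, and 2 to 8 with 1 array left out. With the replicate block, pairing same-numbered arrays, 27 of 112 and 6 of 23 were lower, and no named member's call changed. Quantile scaling left 6 members and 2 unsaturated ones called higher, with a median change of 0.18 for the unsaturated. At a threshold of 95 the medians were 2.52 relative to the 75th percentile and -0.88 relative to the spike-ins. With 1 array left out they were 2.67 to 3.02 and -0.70 to -0.40, and all 112 and all 23 remained higher relative to the 75th percentile. The members' share of signal was 41.7% to 46.5% on heat shock arrays and 30.4% to 32.5% on control arrays with 1 array left out, and 5.37% and 3.80% over unsaturated members only.

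Over all tested probes, 5273 were higher against the 75th percentile with no filter on dim probes and 1876 within slide row 1, and 1038 and 1319 lower with probes above background on all 8 arrays and within slide row 1. Relative to the spike-ins, 307 and 212 were higher under those 2 settings and 3218 lower with probes above background on all 8 arrays. With 1 array left out these counts were 2685 to 2817 and 2074 to 2229 relative to the 75th percentile, and 420 to 542 and 4980 to 5314 relative to the spike-ins.

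The change of 4563.C relative to the spike-ins turned to 0.11 with all unsaturated spike-ins, 0.044 with the median of the spike-ins, 0.013 with normexp background, 0.22 within slide row 2, and 0.06, 0.18 and 0.12 without control replicate 1, heat shock replicate 2 and heat shock replicate 3. It was -0.25 to 0.18 with 1 array left out. That of 9526.E was 0.068 within slide row 2, and that of 67.A -0.21 within slide row 1. Under quantile scaling 8479.D, 5290.C, 6197.C and 113.A changed by -0.18, -0.28, -0.023 and -1.25. The causes were not tested. On some array the signal of 89 of the 112 members is only a lower bound. For the 66 of them saturated on arrays of both groups, no bound on the change follows. The few arrays limit the members saturated on no array.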
